A study of Mus musculus with 6 samples.

Results

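Platelets are cell fragments shed by megakaryocytes, large cells of the bone marrow that also reside in the lung, where they release platelets into the pulmonary circulation. Platelets lack a nucleus but carry messenger RNA made in the megakaryocyte, so RNA of whole lung contains platelet transcripts from both sources. Platelets stick to von Willebrand factor through the glycoprotein Ib-IX-V complex, bind fibrinogen through the integrin αIIbβ3, and release chemokines from their alpha granules. The 9 genes described here belong to this machinery: Gp1ba, Gp1bb, Gp9 and Gp5 for the receptor complex, Itga2b and Itgb3 for the integrin, Pf4 and Ppbp for the granule chemokines, and Treml1 for a granule membrane receptor. They were taken by name, as every probe set whose only annotated gene symbol is one of them. Of the 9 genes, 8 had such a probe set, among 18194 genes with one on the array. Gp1ba had none and was not analysed here. The 8 genes were read by 10 probe sets, of which 8, the brightest of each gene, passed a filter that left out the lower 40% of probe sets by mean value. The set was selected on measured values, the log2 differences of R899X high RVSP against control, which were known when it was drawn up, so their values in that comparison are a description and carry no test.

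The samples were 6 arrays of whole lung homogenate, each from an individual FVB/N mouse, and the series' description states that all were female and age-matched; the label of control 1 does not give the sex. The 2 control mice carried the SM22-rtTA transgene, a doxycycline-activated transactivator under the promoter of the smooth muscle gene Tagln (SM22). The 4 other mice were heterozygous for SM22-rtTA and for TetO7-BMPR2-R899X, a doxycycline-responsive transgene of the bone morphogenetic protein receptor BMPR2 truncated by the R899X mutation. Of these, 2 had a right ventricular systolic pressure (RVSP) near normal at death (R899X normal RVSP) and 2 a substantially raised one (R899X high RVSP). Doxycycline was fed in all 3 groups over 9 weeks, starting when the mice were 4 weeks old, and lungs were taken at an age of 13 weeks. The promoter of the transactivator is that of a smooth muscle gene. Whether megakaryocytes or platelets also carried transgene RNA was not tested. In all 6 mice heparin, an anticoagulant, was injected before death and the right lung was flushed with saline, so the platelet RNA measured is what remained after flushing. In homogenate, fewer cells of a type and less RNA per cell cannot be told apart.

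Median intensity per array lay between 128 and 141, in array units of a linear scale. Endothelial markers were present in the homogenate, with 10 of 10 past the filter, as were ciliated airway markers, with 7 of 8. Control 1 and R899X normal RVSP 1 had the highest 3'/5' intensity ratios of the beta-actin control probe sets, 1.89 and 1.64, against 1.27 to 1.45 on the other 4 arrays; this ratio rises as RNA is shortened from its 5' end. The same ratio for Gapdh, a glycolytic enzyme, was 0.973 and 1.03 in the controls and between 0.700 and 0.875 on the 4 R899X arrays, so that it separated control from R899X without overlap, as did Gp9, Itga2b and Pf4 below; its part in their values was not tested. Differences are given as log2(intensity + 16) with the standard error of limma, a linear model whose spread is estimated across all probe sets, and n = 2 mice per group. Nothing in the labels says how mice were related, and p-values measure only the spread between these mice.

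Promoters are shown for Gp9, Itga2b and Pf4, the members for which all 4 R899X arrays lay above both control arrays. Each runs from 250 bases before to 50 bases after the transcription start, 5′ to 3′ in the direction of the gene, from RefSeq, assembly GRCm38.p6, which is of another mouse strain than FVB/N. Capitals mark GATAA, the core bound by GATA factors such as the megakaryocyte regulator GATA1, and GGAAG, a core bound by ETS factors such as FLI1, each on either strand (TTATC and CTTCC on the other).
Gp9, chr6:87777820-87778119, plus strand: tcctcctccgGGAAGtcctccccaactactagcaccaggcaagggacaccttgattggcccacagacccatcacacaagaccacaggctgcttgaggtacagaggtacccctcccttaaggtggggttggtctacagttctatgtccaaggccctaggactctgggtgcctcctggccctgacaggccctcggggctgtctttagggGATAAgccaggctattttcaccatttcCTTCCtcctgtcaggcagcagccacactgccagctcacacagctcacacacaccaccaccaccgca
Itga2b, chr11:102469834-102470133, minus strand: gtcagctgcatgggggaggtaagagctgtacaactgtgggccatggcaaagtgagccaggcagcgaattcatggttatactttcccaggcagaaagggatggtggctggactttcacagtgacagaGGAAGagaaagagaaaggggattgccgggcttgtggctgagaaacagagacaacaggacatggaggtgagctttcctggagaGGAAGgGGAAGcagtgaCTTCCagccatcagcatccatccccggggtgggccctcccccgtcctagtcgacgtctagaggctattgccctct
Pf4, chr5:90772185-90772484, plus strand: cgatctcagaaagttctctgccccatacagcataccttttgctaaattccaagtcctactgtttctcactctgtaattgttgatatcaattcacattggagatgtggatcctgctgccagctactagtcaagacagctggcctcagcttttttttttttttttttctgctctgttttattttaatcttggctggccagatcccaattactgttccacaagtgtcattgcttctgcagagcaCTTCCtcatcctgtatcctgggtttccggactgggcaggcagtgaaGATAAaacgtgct

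RefSeq promoters were found for 8 of the 9 genes, and not for Itgb3. GATAA was present in 4 of these 8 (Gp9, Gp1ba, Gp5 and Pf4), against 25.4% of 32851 promoters of the same length. GGAAG was present in 8 of 8, against 71.4% of all promoters, with 4 matches in Itga2b. Both motifs stood together in the same 4 promoters and in 17.2% of all. In Gp9 the GATAA match began at base -43 from the start and a GGAAG match, read on the other strand, at -16. TGAGTCA, the core shared by the megakaryocyte factor NF-E2 and by AP-1 factors, was in 0 of 8 and in 5.2% of all promoters. The matches of the first 2 motifs overlapped each other at 0 places in the 8 promoters. A match is a string of letters and no measure of binding.

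The receptor complex for von Willebrand factor came out higher in R899X high RVSP than in control lung in each of its 3 measured genes. Gp9, glycoprotein IX, which the complex needs to reach the cell surface, had intensities of 142 and 125 among control mice, 177 and 173 with R899X and normal RVSP, and 194 and 276 with R899X and high RVSP. The 3 groups did not overlap and stood in the order control, normal RVSP, high RVSP. On the log2 scale R899X high RVSP exceeded control by 0.74 ± 0.26, a ratio of 1.66, and R899X normal RVSP exceeded control by 0.36 ± 0.26. Gp1bb, the beta chain of glycoprotein Ib, read 201 and 211 in the controls, 193 and 241 in R899X normal RVSP and 253 and 366 in R899X high RVSP. Both high RVSP arrays lay above the other 4, which were interleaved. Its difference was 0.53 ± 0.25 for high RVSP against control and 0.062 ± 0.25 for normal RVSP against control. Gp5, glycoprotein V, which thrombin cleaves from the platelet surface, read 228 and 249 in the controls, 226 and 251 in R899X normal RVSP and 257 and 365 in R899X high RVSP. Control and normal RVSP arrays were nearly the same, with a difference of 0.00060 ± 0.24, and only R899X high RVSP 2 stood clearly above them. R899X high RVSP 1 exceeded the highest normal RVSP array by little, and the difference from control of 0.34 ± 0.24 rested mostly on the other mouse.

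**Figure D1:**
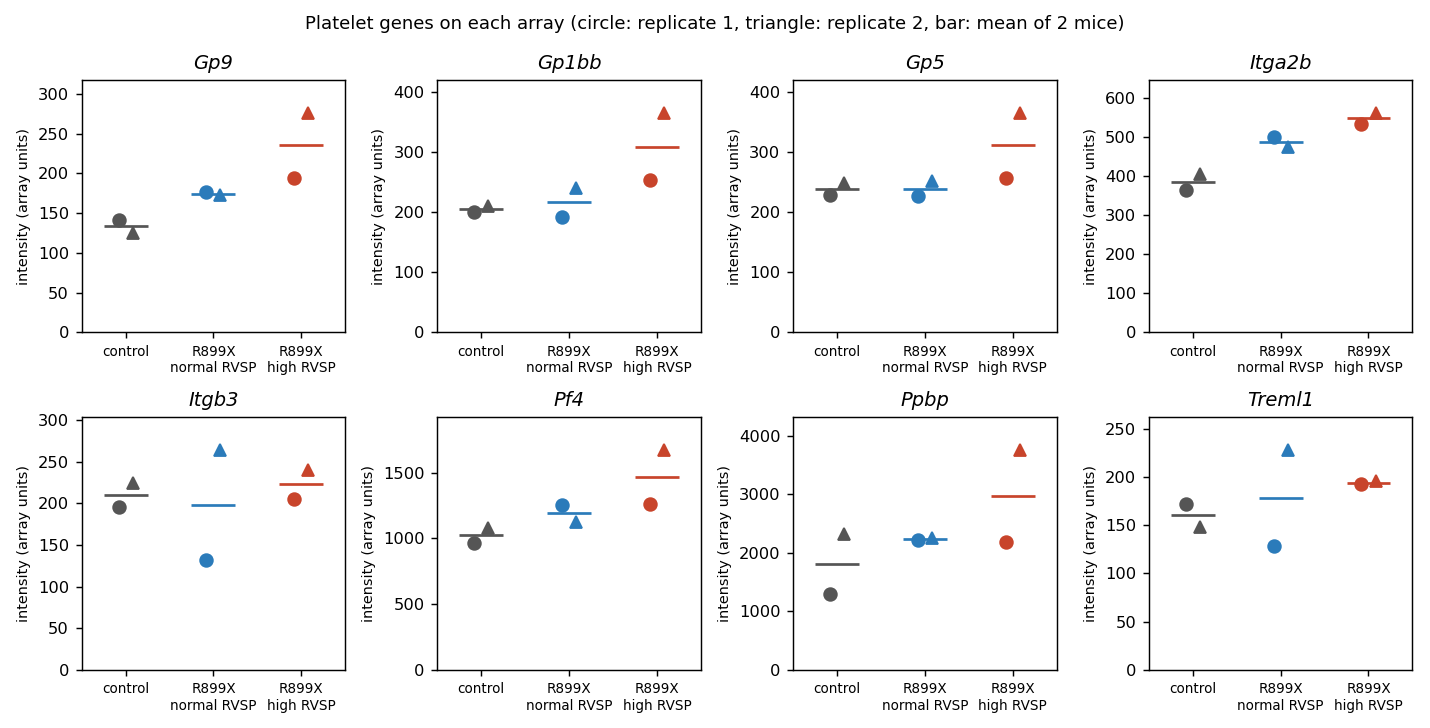
Intensity in array units (vertical axes, from 0) of the brightest probe set of 8 platelet genes on each of 6 arrays, by group; circles are replicate 1, triangles replicate 2 and bars the mean of 2 mice. Gp9 stands in steps from control (142 and 125) to R899X high RVSP (194 and 276), while Itgb3 and Treml1 have their highest and lowest values within R899X normal RVSP.

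A dimmer second probe set of Gp1bb, left out by the filter, gave 67.3 and 71.9 in the controls, 74.5 and 31.6 in R899X normal RVSP and 108 and 88.7 in R899X high RVSP, so here too both high RVSP arrays were above the other 4. Another probe set, annotated to both Septin5 and Gp1bb, neighbouring genes whose transcripts can overlap, was not counted as a member. It read 134 and 202 in the controls, 176 and 203 in R899X normal RVSP and 126 and 187 in R899X high RVSP. It did not separate the groups.

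For the fibrinogen receptor, the groups stood apart in the one chain and overlapped in the other. Itga2b, the αIIb chain, which is made mainly by megakaryocytes, read 365 and 406 in the controls, 500 and 475 in R899X normal RVSP and 534 and 562 in R899X high RVSP. The 3 groups did not overlap, and mice within a group differed little, so that the standard error was the smallest of the 8 genes. High RVSP exceeded control by 0.49 ± 0.18, normal RVSP exceeded control by 0.33 ± 0.18, and high exceeded normal RVSP by 0.17 ± 0.18. Itgb3, the β3 chain, which endothelial cells, smooth muscle and macrophages can also make, read 196 and 225 in the controls, 132 and 264 in R899X normal RVSP and 205 and 240 in R899X high RVSP. All 3 groups overlapped, with both extremes among the normal RVSP mice, and high RVSP differed from control by 0.075 ± 0.32. A dimmer Itgb3 probe set, left out by the filter, gave 22.2 and 52.9 in the controls, 71.0 and 96.4 in R899X normal RVSP and 42.0 and 179 in R899X high RVSP. On it the normal RVSP mice lay above the controls, but the high RVSP mice were the farthest apart of any group.

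Both granule chemokines had a higher mean in R899X high RVSP than in control. Pf4, platelet factor 4, a heparin-binding chemokine, read 968 and 1082 in the controls, 1256 and 1127 in R899X normal RVSP and 1261 and 1672 in R899X high RVSP. The groups again did not overlap, but R899X normal RVSP 1 and R899X high RVSP 1 were almost equal. High RVSP exceeded control by 0.50 ± 0.19 and normal RVSP exceeded control by 0.21 ± 0.19. Ppbp, whose product is cut to the neutrophil-attracting peptide CXCL7 and whose gene neighbours Pf4, read 1293 and 2322 in the controls, 2212 and 2257 in R899X normal RVSP and 2177 and 3754 in R899X high RVSP. Control 1 was low and R899X high RVSP 2 high, while the other 4 arrays lay between 2177 and 2322. The difference of 0.72 ± 0.32 between high RVSP and control was 0.33 without R899X high RVSP 2 and 0.30 without control 1. Treml1, a receptor of alpha granule membranes that reaches the surface on activation, read 173 and 148 in the controls, 128 and 228 in R899X normal RVSP and 192 and 196 in R899X high RVSP. The high RVSP mice were close together above both controls, but normal RVSP mice lay on either side of them, and the difference from control was 0.26 ± 0.30.

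The members together were higher in R899X high RVSP than in control in 8 of 8 measured genes, against 46.1% of 12557 measured genes, with a median difference of 0.49 beside -0.019 over all genes. The arrays of these groups did not overlap for 6 of the 8 (all but Itgb3 and Ppbp), against 14.3% of all genes as deposited. After quantile normalization, or with arrays centred on their median, the count was 5, without Gp5. The share of all genes under those scalings is not given here. In this comparison 0 of the 8 had an adjusted p under 0.05 in limma with Benjamini-Hochberg adjustment, where 0% of 27022 probe sets did (0 in an ordinary linear model, 1527 at an unadjusted limma p under 0.05, 1351 expected by chance). Since this comparison chose the genes, the counts describe the choice. The median was 0.29 without R899X high RVSP 2, and 0.27 when the beta-actin ratio entered the fit as a covariate.

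**Figure D2:**
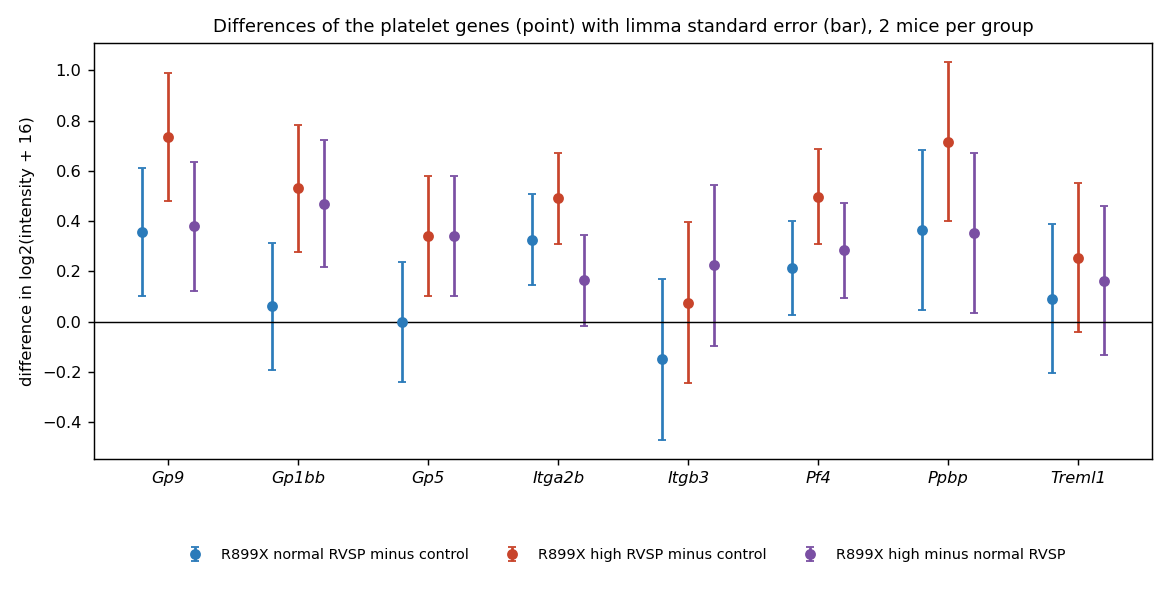
Difference in log2(intensity + 16) (vertical axis) for 8 platelet genes in 3 comparisons; points are limma estimates and bars 1 standard error either side, from 2 mice per group. Gp9 and Ppbp have the highest differences between R899X high RVSP and control (0.74 and 0.72), and Itgb3 the lowest (0.075).

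R899X normal RVSP was set against control for the mutation without raised pressure; this comparison shares both control arrays with the one that chose the genes. Gp9, Itga2b and Pf4 were higher in both normal RVSP mice than in both controls, 3 of 8 genes against 15% of all genes. These 3 remained so after quantile normalization, where the share of all genes was 16.3%, and with arrays centred on their median, where it was 21.3%. None of the 8 passed: the adjusted p in limma was between 0.987 and 0.9999 for all of them, and 0% of probe sets passed (1174 had an unadjusted p under 0.05, and 0 passed in the ordinary linear model). Of the 8 differences, 7 were above 0, against 53.7% of all genes, and their median was 0.15 beside 0.017 over all genes. That median rested on single arrays, being 0.082 without control 1 and 0.30 without R899X normal RVSP 1. It was 0.039 with the beta-actin covariate and 0.27 when all probe sets of a gene were averaged. The average takes in the 2 dimmer probe sets left out by the filter, which differed by 0.95 for Itgb3 and -0.38 for Gp1bb. The number of genes above 0 was 4 without R899X normal RVSP 2, and 4 with the covariate. For Itga2b, the most precise, the 95% interval of the difference ran from -0.090 to 0.74. In the same comparison smooth muscle markers were higher in 8 of 8, with a median of 0.30 and 4 genes without overlap, and ciliated markers in 7 of 7, with a median of 0.29. Their part in the platelet values was not tested.

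R899X high RVSP was set against R899X normal RVSP, mice with the same transgenes and different pressure; it shares the high RVSP arrays with the comparison that chose the genes. The difference was above 0 for 8 of 8 genes, against 42.5% of all genes, with a median of 0.31 beside -0.034. Gp1bb differed most, by 0.47 ± 0.25, followed by Gp9 at 0.38 ± 0.26, Ppbp at 0.35 ± 0.32 and Gp5 at 0.34 ± 0.24. None of the 8 passed (adjusted p in limma 0.9996 for each), and 0% of probe sets passed (707 had an unadjusted p under 0.05, and 0 passed in the ordinary linear model). The arrays did not overlap for 5 genes (Gp9, Gp1bb, Gp5, Itga2b and Pf4), against 11.5% of all genes. After quantile normalization Gp9, Gp1bb, Itga2b and Pf4 kept apart and Gp5 did not. The share of all genes there is not given here. With arrays centred on their median, which put the median of all genes at -0.12, only Gp9 kept apart, 1 of 8 against 5.7%. The median over the 8 genes was 0.12 without R899X high RVSP 2, 0.53 without R899X high RVSP 1 and 0.20 with the beta-actin covariate. Smooth muscle markers went the other way in this comparison, with 8 of 8 lower and a median of -0.28. Ciliated markers were lower in 7 of 7, with a median of -0.21, and cardiac muscle markers in 11 of 11, with a median of -0.76. Their part in the platelet values was not tested.

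**Figure D3:**
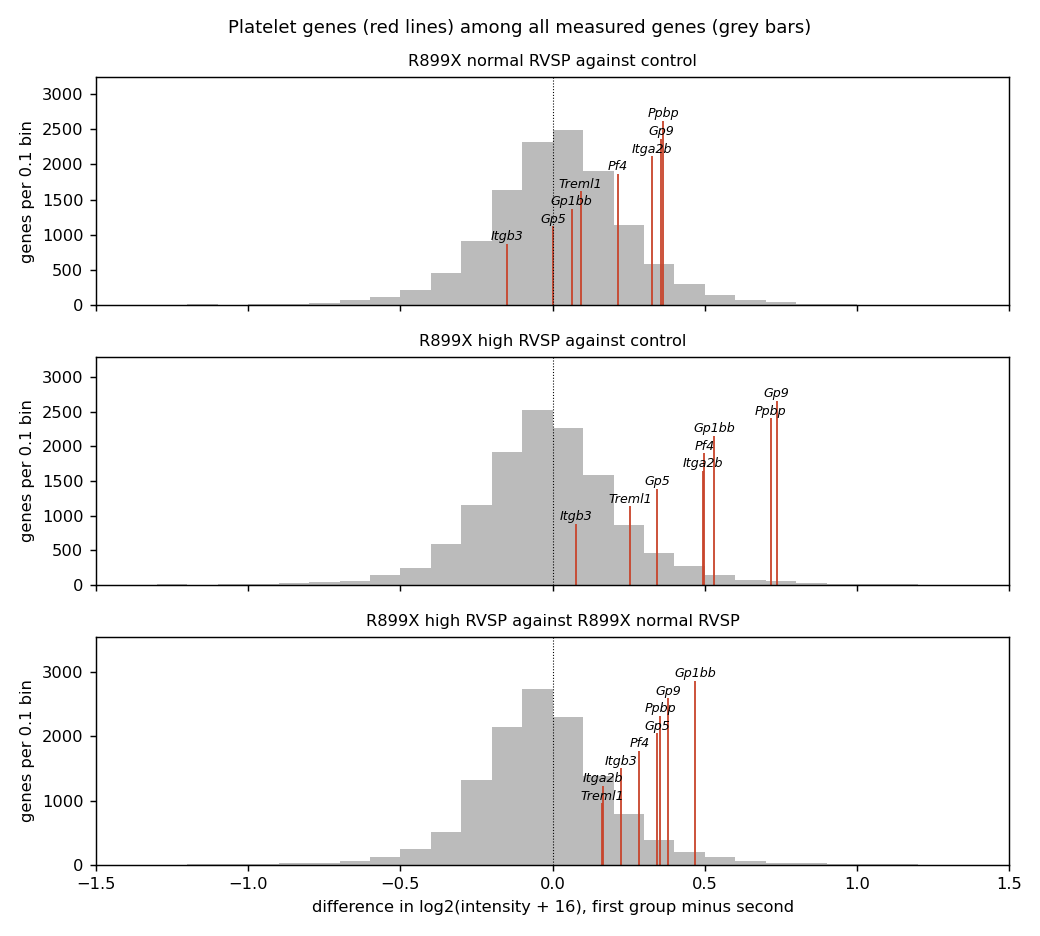
Number of genes per 0.1 bin (vertical axes) by their difference in log2(intensity + 16) (horizontal axis) in 3 comparisons; grey bars are 12557 measured genes, cut at 1.5 either side, and labelled red lines are the 8 platelet genes, whose heights only separate the labels. The platelet genes lie right of 0 in the lower panels, 8 of 8 in each, and Itgb3 lies left of 0 in the top panel.

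With both R899X groups joined, Gp9, Itga2b and Pf4 were the members with all 4 R899X arrays above both controls. This was 3 of 8, against 6.24% of all genes on the values as deposited. The same 3 kept apart under each other scaling, where the share of all genes is not given here. Their differences from control were 0.55 ± 0.22, 0.41 ± 0.16 and 0.36 ± 0.16. The median over the 8 genes was 0.33, or 0.21 without R899X high RVSP 2 and 0.14 with the beta-actin covariate; 7 of 8 were above 0, against 49.9% of all genes, and 0 passed where 0% of probe sets passed (1601 at an unadjusted limma p under 0.05, 0 in the ordinary linear model). This comparison holds the arrays that chose the genes.

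The mice were unequal within groups. R899X high RVSP 2 had the highest intensity of the 6 arrays for 6 of the 8 genes, and R899X normal RVSP 2 for the other two, Itgb3 and Treml1. The lowest value was in R899X normal RVSP 1 for 4 genes, in control 1 for 3 and in control 2 for 1. As the mean log2 deviation from each gene's own mean, the 8 genes stood at -0.28 and -0.13 in the controls, -0.17 and 0.072 in R899X normal RVSP and 0.067 and 0.44 in R899X high RVSP. R899X high RVSP 1 and R899X normal RVSP 2 were thus about level, and the gap between the high RVSP mice exceeded the gap between R899X high RVSP 1 and either normal RVSP mouse. Over the 6 arrays the beta-actin 3'/5' ratio ran in exactly the reverse order of this score. It fell from 1.89 in control 1, the lowest score, to 1.27 in R899X high RVSP 2, the highest. What lay behind this order was not tested, and medians with the ratio as a covariate are given above.

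**Figure D4:**
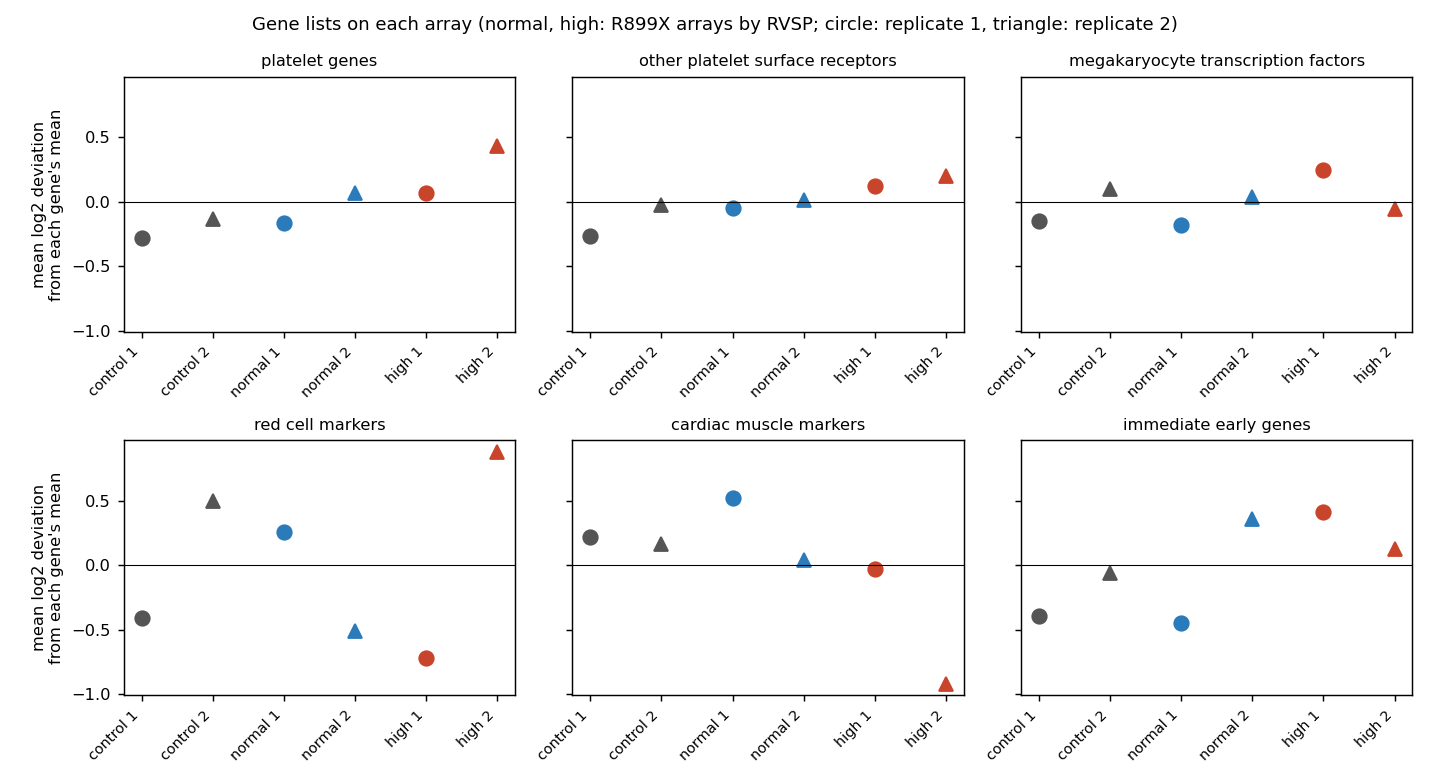
Mean log2 deviation from each gene's mean (vertical axes) of 6 gene lists on each of the 6 arrays; circles are replicate 1 and triangles replicate 2. The platelet genes peak in R899X high RVSP 2 (0.44), where red cell markers are highest (0.88) and cardiac muscle markers lowest (-0.92).

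Among other receptors of the platelet surface, 13 of 18 listed genes were measured, and 12 of the 13 were higher in R899X high RVSP than in control, with a median of 0.26. None passed, and the arrays did not overlap for 8 of the 13, against the same 14.3% on the values as deposited. The count was 6 after quantile normalization and 7 with arrays centred on the median, where the share of all genes is not given here. Cd36, among those 8 genes, read 12180 and 15697 in the controls and 17314 and 18063 in R899X high RVSP. Esam, also among them, read 8052 and 7364 in R899X high RVSP. Both were brighter than any member on every array, and which cells their RNA came from was not tested. Tbxa2r, the thromboxane receptor, read 180 and 247 in the controls, 341 and 277 in R899X normal RVSP and 298 and 337 in R899X high RVSP, so that all R899X mice were above the controls (0.55 ± 0.24 for high RVSP). Clec1b, the platelet receptor for podoplanin, read 361 and 499, 584 and 426, and 599 and 653 in the same order of groups (0.54 ± 0.23). Itga2, the collagen-binding α2 chain, differed by 0.57 ± 0.37 and P2ry12, the ADP receptor that clopidogrel blocks, by 0.47 ± 0.31. Against control, R899X normal RVSP had 9 of these 13 higher and 4 lower, with a median of 0.21. Its arrays lay wholly above the controls for 2 genes, against 15% of all genes. They lay wholly below the controls for 2, a count whose share over all genes is not given here. The largest of these differences in size was a fall, that of Itga6 (-0.52 ± 0.22).

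Genes of platelet granules and secretion did not share a direction: 9 of 18 were higher in R899X high RVSP than in control, with a median of -0.019. Thbs1, thrombospondin 1, which fibroblasts and endothelium also make, read 385 and 790 in the controls, 478 and 802 in R899X normal RVSP and 1137 and 997 in R899X high RVSP (0.93 ± 0.35). Vwf, von Willebrand factor, which endothelium makes in quantity, differed by -0.37 ± 0.26. F5, coagulation factor V, differed by 0.44 ± 0.21 and Vamp8, a SNARE of granule release, by 0.36 ± 0.23.

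Of signalling and cytoskeletal genes of platelets, 11 of 19 were higher in R899X high RVSP than in control and 8 lower. The median was 0.024 and the differences ran from -0.38 to 0.68. Tubb1, a tubulin, read 774 and 808 in the controls and 768 and 1087 in R899X high RVSP (0.20 ± 0.21). The high RVSP mice thus lay on either side of both controls. The genes named next were the largest in size, and all were higher. Alox12, the platelet 12-lipoxygenase, read 207 and 228 in the controls, 328 and 352 in R899X normal RVSP and 350 and 365 in R899X high RVSP. Its 4 R899X arrays were all above the controls, with differences of 0.61 ± 0.20 for normal and 0.68 ± 0.20 for high RVSP. Myh9, the nonmuscle myosin heavy chain, differed by 0.60 ± 0.28, Myl9, a myosin light chain shared with smooth muscle, by 0.40 ± 0.17, and Fyb, an adaptor of integrin activation, by 0.39 ± 0.28.

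Transcription factors of megakaryocytes were higher in 8 of 14, with a median of 0.075. Nfe2, which drives platelet release, read 191 and 230 in the controls, 233 and 240 in R899X normal RVSP and 361 and 242 in R899X high RVSP (0.47 ± 0.25); its high value was in R899X high RVSP 1, not in the mouse with the highest platelet genes. Runx1, a regulator of blood cell formation, differed by 0.79 ± 0.45, Ets1, an ETS factor of lymphocytes and endothelium, by 0.49 ± 0.29, and Tal1, which is shared with red cell precursors, by -0.28 ± 0.21. Of the factors named with the promoter motifs, Gata1 differed by -0.11 ± 0.32 and Fli1 by 0.13 ± 0.28. For R899X normal RVSP against control these were -0.17 ± 0.32 and -0.38 ± 0.28. In these 3 lists too, 0 genes passed over all probe sets in any of the comparisons.

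Other cells and RNA quality moved with the group or with single arrays. Cardiac muscle markers were lower in R899X high RVSP than in control in 11 of 11 genes, with a median of -0.78, and their summed intensity was 27134 to 29498 in the controls, 26544 to 35792 in R899X normal RVSP and 12931 to 24810 in R899X high RVSP. The lowest sum was in R899X high RVSP 2, the array with the highest platelet genes. Red cell markers, of which 4 of 13 were measured, summed to 5145 to 7787 in the controls, 4430 to 7932 in R899X normal RVSP and 4890 to 10426 in R899X high RVSP. Alas2, the first enzyme of haem synthesis in red cell precursors, read 552 in the first high RVSP mouse and 3388 in the second. The red cell deviation was -0.71 in R899X high RVSP 1, the lowest of the 6 arrays, and 0.88 in R899X high RVSP 2, the highest. Immediate early genes were higher in 11 of 11 in R899X high RVSP against control, with a median of 0.53, and summed to 41214 to 51854 in the controls, 40851 to 65859 in R899X normal RVSP and 54468 to 66704 in R899X high RVSP. Of other leukocytes, neutrophil markers were higher in 7 of 10, with a median of 0.23, B cell markers in 6 of 7, with 0.35, T and NK cell markers in 5 of 8, with 0.21, macrophage markers in 4 of 8, with 0.025, and mast cell and basophil markers in 3 of 5, with 0.048. Endothelial markers were higher in 3 of 10, with a median of -0.046, smooth muscle markers in 3 of 8, with -0.030, and ciliated markers in 6 of 7, with 0.20. No marker of these lists that passed the filter was at 0. The part of these cells in the platelet values was not tested; with the beta-actin covariate the platelet median stood at the values given above.

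The genes whose pattern over the 6 arrays was most like the mean of the 8 members were searched among 6251 genes with a range of at least 0.5 on the log2 scale. The closest was Usp5, a deubiquitinase, with a Pearson r of 0.983 over 6 arrays and intensities of 444 and 523 in the controls, 512 and 616 in R899X normal RVSP and 598 and 740 in R899X high RVSP. The next were Tmem43, Nkx2-6, Sgsm1, Sh3bgrl2, Rab11b, Abhd11os, Pigm, Ccl9 and Ccdc127, with r from 0.975 down to 0.943. With 6 arrays and 6251 candidates, high values of r arise without any relation, and the list is a description of likeness alone.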

How the data were processed

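The authors deposited a linear intensity for each of 45101 probe sets of an Affymetrix whole-genome mouse array; biotin labelling followed the manufacturer's manual, per the labels' protocols. The method that summarised the probes of a set is not stated in the sources used here. The mean after trimming 2% at each end was 500.0 on every array, which shows a common scaling of the deposited intensities. Values were used as log2(intensity + 16), which understates differences of dim probe sets. The 64 control probe sets and the lower 40% by mean (18015, below about 74.9) were left out, leaving 27022. Symbols come from the platform annotation: 34945 probe sets had 1 symbol, 932 several, and 9160 were unlisted. Where a gene had several, the probe set with the highest mean stood for it.

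A model with a mean for each group was fitted over the 6 arrays in limma 3.58.1 under R 4.3.3 (3 residual and 5.06 prior degrees of freedom, intensity trend). Tests were two-sided, and adjusted p-values (Benjamini-Hochberg, threshold 0.05) cover all probe sets; the procedure was checked on simulated data. An exact permutation test cannot go below p = 0.333 for 2 against 2 arrays and was not used. Replicates are numbered in accession order. The members, lists and naming rule (all members, at most 4 genes per other list by size of the high RVSP difference, 10 genes by likeness) were chosen with earlier results of these data known. Cd36, Esam, Itga6, Tubb1, Gata1 and Fli1 are named outside that rule. Alternatives varied the pseudocount, filter, scaling, spread, covariate and arrays. Several listed genes are not analysed here, because no probe set of theirs was annotated with that symbol alone or because the filter left theirs out. Of the other platelet surface receptors, 17 of 18 had such a probe set and 13 passed the filter. Of the red cell markers, 8 of 13 had one and 4 passed.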

Additional observations from a re-analysis of the deposited data

Results flagged for a closer look

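Of the 10 probe sets of the platelet genes, 1 had an array standing apart among the 4 R899X mice. Ppbp read 3754 in R899X high RVSP 2, against 2177 to 2257 in the other 3. The mark is a gap to the nearest array that takes up more of the range than chance gives in about 1 of 20 groups of 4, and 10 probe sets were looked at. The cause was not tested.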

How the results depend on the processing

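Over the settings tried, the median difference of the platelet genes stayed above 0 in each comparison, from 0.039 to 0.30 for R899X normal RVSP against control, 0.27 to 0.64 for high RVSP against control, 0.12 to 0.53 for high against normal RVSP and 0.14 to 0.43 for all R899X against control. Leaving out 1 array gave 0.082 to 0.30, 0.29 to 0.64, 0.12 to 0.53 and 0.21 to 0.43. High RVSP against control moved by more than the spread between mice when the beta-actin ratio was a covariate (0.27) and without R899X high RVSP 2 (0.29), and high against normal RVSP did so without either high RVSP mouse (0.53 without the first and 0.12 without the second). Members without overlap between high and normal RVSP went from 5 to 1 with arrays centred on the median. Quantile normalization took only Gp5 from the 5. Single genes changed sign in 12 of 125, 4 of 125, 5 of 125 and 5 of 117 values; none had passed. Itgb3 did so in all 4 comparisons, and was the 1 gene to do so in high RVSP against control.

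Counts of probe sets passing left 0 in 3 kinds of fit, and 0 members passed in any. Without control 1 and R899X normal RVSP 1 together they were 131, 313, 56 and 228, a fit with 1 residual degree of freedom that takes its spread from the high RVSP pair. With only the groups compared, high RVSP against control gave 1. Leaving out 1 array gave 0 to 4, 0 to 2, 0 to 43 and 0 to 6 (up to 43 without R899X normal RVSP 2); the lone mouse is then assumed to vary like the other groups. The covariate fit and the fits without an array rest on fewer degrees of freedom; the cause of other changes was not tested. The labels give each mouse its own number, but do not say that any of these numbers links mice across groups. No paired analysis was therefore made.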
